A study of Mus musculus with 25 samples.

Results

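Livers of C57/B6 mice at 21 days after birth, the usual age of weaning, were set against livers of suckling pups at 7 and 14 days. The comparison used 4 of the 25 arrays of a series that follows liver development over 14 stages. They were chosen by their titles: 2 technical repeat arrays of Day21, and 1 array each of Day7 and Day14. Each of these stages is 1 pool of 3 whole livers, from mice of one strain described as random-bred, with no treatment recorded. The labels do not give the sex of the pups, whether and when they were weaned, their feeding state or the hour at which livers were taken. The question was which transcripts differ between a liver fed on milk and one at weaning age.

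Milk is rich in fat and poor in starch. A suckling liver burns fatty acids, makes ketone bodies and glucose, and synthesises little fat or cholesterol of its own. Solid food brings carbohydrate and plant compounds, and rodent livers are known to raise glycolysis, lipid synthesis and drug metabolism around weaning. Over the same weeks blood formation leaves the liver, hepatocytes slow their division and a network of fetal and imprinted growth genes is shut down.

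Levels are log2 intensities of 18194 genes, each read from the probe set of highest mean. A gene was called when the limma fit of all 25 arrays gave a Benjamini-Hochberg adjusted p under 0.05 and a difference of at least 1 log2 unit, which is 2-fold, between Day21 and the mean of Day7 and Day14. Errors printed with ± are standard errors of that fit, whose spread comes from repeat arrays of the same RNA (technical SD of 0.111 to 0.213 log2 units by stage) and not from animals. When the 3 pools themselves were the replicates, 1 at Day21 against 2 younger ones, 0 genes were called by limma. Of the 18194 genes 634 had an unadjusted p under 0.05 there, a smaller share than that threshold passes when no gene differs. The calls below therefore describe these pools. The medians of the 4 arrays lay within 6.11 and 6.13, and the Day21 repeats correlated across genes at r = 0.9958. The mean of 14 housekeeping genes stood at 10.38 at Day21, 10.65 at Day7 and 10.41 at Day14. None of the 9 hepatocyte identity genes was called. Albumin (Alb) measured 14.16 and 14.02 on the Day21 arrays, against 14.44 at Day7 and 14.49 at Day14.

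At Day21 360 genes were higher (1.98% of those tested) and 317 were lower (1.74%). A stricter count asked for a 2-fold difference in the same direction against each younger pool as well, and left 211 higher genes (1.16%) and 80 lower ones (0.44%). Of the higher genes 58.6% passed that rule, and of the lower ones 25.2%. The single-stage comparisons show where the lower genes sit in time. Against Day7 alone 467 genes were higher at Day21 (2.57%) and 803 lower (4.41%). Against Day14 alone 552 were higher (3.03%) and 96 lower (0.528%). From Day7 to Day14, 211 genes rose (1.16%) and 831 fell (4.57%). In these pools more genes fell from Day7 to Day14 than after it, and more rose after Day14 than before it. These comparisons share arrays and are not independent of each other. Their percentages are shares over all genes, beside which the counts of list members below are to be read.

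Several transcripts of the exocrine pancreas were lower at Day21 than in the suckling pools and are kept out of the results that follow. Of 46 pancreas genes measured, 8 were called lower at Day21 and 0 higher, 5 of the 8 also under the stricter rule. Against Day7 alone 6 were lower, and against Day14 alone 10. Without the list the counts of lower genes were 309 and 75. The lipase relative Pnliprp1 measured 5.83 and 5.89 on the Day21 arrays, against 8.60 at Day7 and 9.13 at Day14. Elastase Cela2a stood at 5.33 on both Day21 arrays, against 6.35 at Day7 and 8.06 at Day14. Carboxyl ester lipase (Cel) had 5.28 and 5.31 on the Day21 arrays, against 6.39 at Day7 and 7.38 at Day14. Carboxypeptidase Cpb1 and chymotrypsinogen Ctrb1 were likewise lowest on the Day21 arrays and highest at Day14. Across the list, 33 of the 46 genes were highest on the Day14 array and 11 on the Day7 array. The trypsin inhibitor Spink1, which is also a fetal liver transcript, was the exception among the called genes, at 5.39 and 5.57 on the Day21 arrays, against 8.77 at Day7 and 5.85 at Day14. Whether pancreas tissue was carried into the younger pools was not tested.

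**Figure D1:**
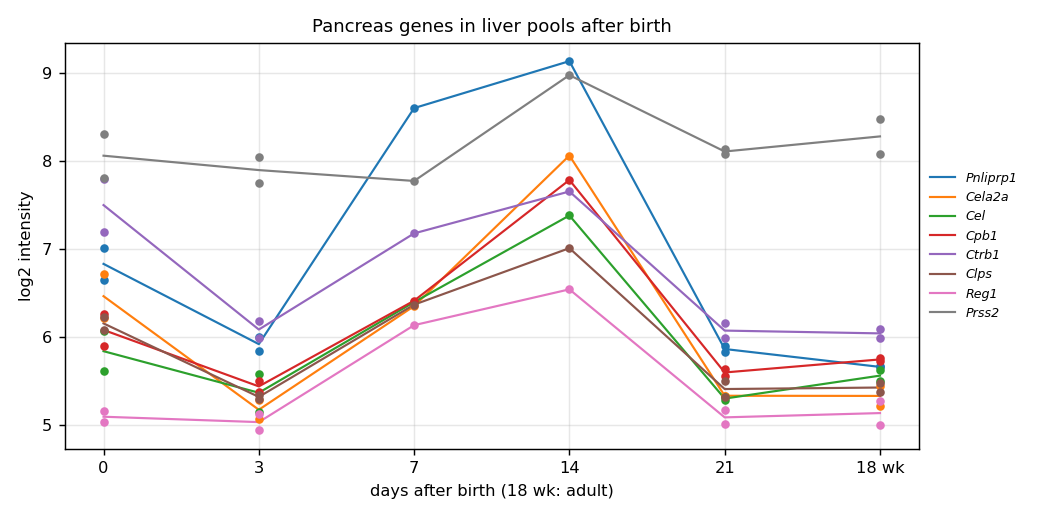
Log2 intensity of 8 pancreas genes in the liver pools after birth, from day 0 to 18 weeks; points are arrays and lines join stage means. Pnliprp1 stands at 8.60 on Day7 and 9.13 on Day14, and at 5.83 and 5.89 on the Day21 arrays.

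Under the stricter rule the largest rise belonged to Hamp2, a hepcidin gene, followed by the retinaldehyde dehydrogenase Aldh1a1, the immunoglobulin transporter Pigr, the G-protein regulator Rgs16 and the proline-degrading enzyme Prodh. Gpt2, Dhdh, Dbp, Hamp, Aldh1a7, Cyp2b13 and Prkaa2 completed the 12 largest rises. Aldh1a1 measured 11.44 and 11.38 on the Day21 arrays, against 7.46 at Day7 and 7.62 at Day14, a difference of 3.87 ± 0.16. Its close relative Aldh1a7 had 9.41 and 9.53 on the Day21 arrays, against 7.35 at Day7 and 5.95 at Day14. Both were lower still on Day3, at 5.78 for Aldh1a1 and 4.72 for Aldh1a7. Pigr, which carries dimeric IgA across epithelia and into bile, measured 9.74 and 9.49 on the Day21 arrays, against 5.65 at Day7 and 6.24 at Day14. It rose by 3.67 ± 0.21 and stood higher still in the adult pool, at 11.33. Prkaa2, a catalytic subunit of the energy sensor AMP-activated kinase, had 9.69 and 9.80 on the Day21 arrays, against 6.47 at Day7 and 7.44 at Day14. In each of these genes both Day21 arrays lay far above both younger ones.

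The largest falls were those of Igf2, the fetal growth factor, and Bex1, followed by the neutrophil proteins S100a8 and S100a9, the fatty acid binding protein Fabp5, the cytochrome Cyp3a44, Ngp, Pclaf, Rrm2, Tsc22d1, Top2a and Ube2c. Bex1, an X-linked adaptor of unsettled function in liver, measured 5.61 and 5.43 on the Day21 arrays, against 10.44 at Day7 and 10.02 at Day14. It fell by 4.71 on the log2 scale, and the suckling pools differed from each other by far less than that. Tsc22d1, a leucine-zipper protein, fell by 2.59 on the set used, and other sets of its kind gave -2.86, -2.68, -0.76 and -0.03. A set of its own that cannot match other transcripts gave 0.15, and another gave 0.14. The first of these lay between 4.88 and 5.21 on all 4 arrays, below the array medians.

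**Figure D2:**
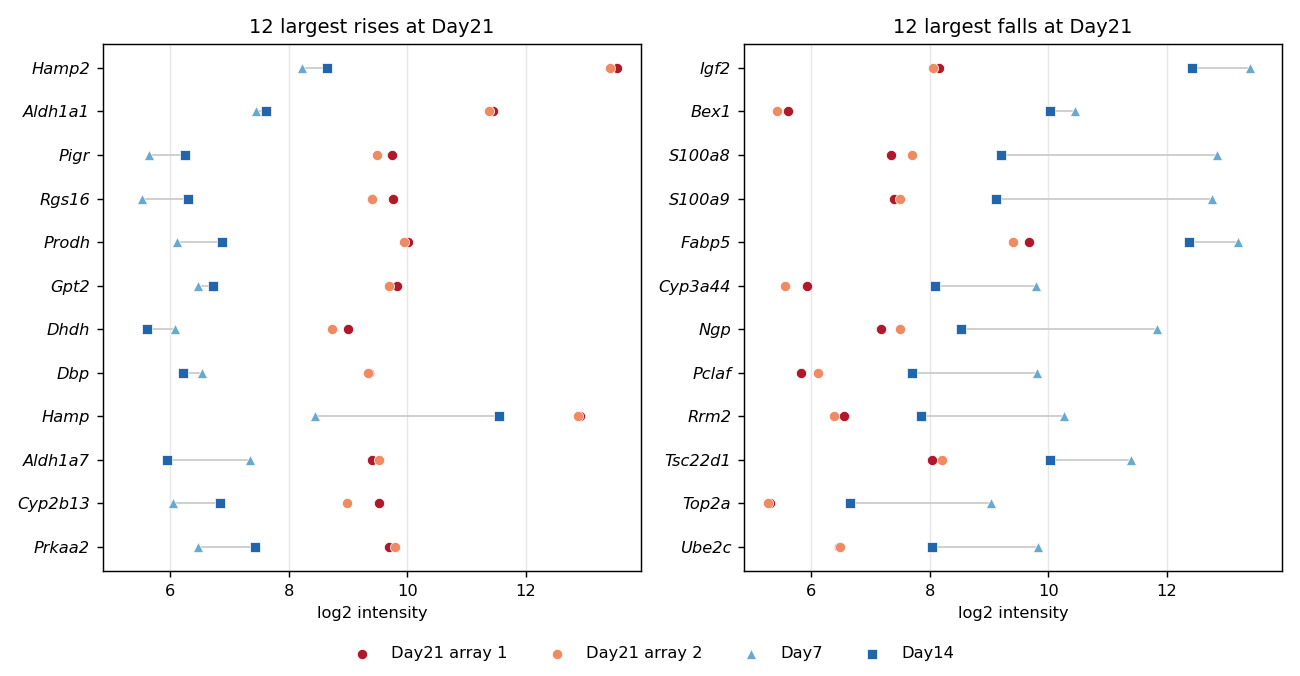
Log2 intensity of the 12 largest rises (left) and 12 largest falls (right) at Day21 under the stricter rule, with 1 symbol per array. By the rule that chose the genes, Day21 lies to the right of Day7 and Day14 in the left panel and to the left in the right panel. Igf2 runs to 8.16 and 8.05 at Day21, against 13.39 and 12.42.

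Hepcidin is the liver hormone that closes the iron exporter ferroportin, and mice carry a pair of hepcidin genes, Hamp and Hamp2, side by side. These arrays do not show whether the product of Hamp2 acts on iron. Hamp2 measured 13.53 and 13.42 on the Day21 arrays, against 8.23 at Day7 and 8.65 at Day14. Its rise of 5.04 ± 0.30 corresponds to 32.9-fold. Hamp had 12.92 and 12.88 on the Day21 arrays, against 8.44 at Day7 and 11.55 at Day14, a rise of 2.91 ± 0.22. The second Hamp set gave 12.78 and 12.63 on the Day21 arrays, against 7.96 at Day7 and 11.02 at Day14. Hamp was thus already high at Day14, whereas the Hamp2 set still read close to its Day7 value there. Across the stages after birth Hamp was not rising throughout, since it stood at 12.55 on Day3. The Hamp2 probes are of a kind that can match near-identical transcripts, and the other Hamp2 set stayed between 5.28 and 5.63 on all 4 arrays, so the value for this copy is uncertain. Tfrc, the transferrin receptor through which cells take up iron, went the other way, with 8.34 and 8.51 on the Day21 arrays, against 11.33 at Day7 and 10.33 at Day14. Of 24 metal-handling genes 2 were higher, both hepcidins, and 3 were lower: Tfrc, the metallothionein Mt2 and the haem oxygenase Hmox1. Against Day14 alone Tfrc was the 1 lower member. The ferritin heavy chain Fth1 differed by -0.15 ± 0.15 and was not called.

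The promoters of the hepcidin pair are shown because the copies share most of their upstream sequence while their sets read differently at Day14, with the Hamp2 reading uncertain. Both are RefSeq sequence of build GRCm38.p6, minus strand, the 250 bases before the annotated start. Hamp lies at chr7:30944030-30944279 and Hamp2 at chr7:30924182-30924431. Capitals mark the letters TTCTTGGAA, a STAT site described in hepcidin promoters, and GGCGCC, the core of their BMP-responsive element. Both motifs were chosen after the values were seen.
Hamp: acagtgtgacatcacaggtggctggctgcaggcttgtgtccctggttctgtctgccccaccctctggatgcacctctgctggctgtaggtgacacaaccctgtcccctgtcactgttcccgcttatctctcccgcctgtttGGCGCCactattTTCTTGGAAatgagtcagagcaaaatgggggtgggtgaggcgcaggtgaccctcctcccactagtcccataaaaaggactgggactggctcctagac
Hamp2: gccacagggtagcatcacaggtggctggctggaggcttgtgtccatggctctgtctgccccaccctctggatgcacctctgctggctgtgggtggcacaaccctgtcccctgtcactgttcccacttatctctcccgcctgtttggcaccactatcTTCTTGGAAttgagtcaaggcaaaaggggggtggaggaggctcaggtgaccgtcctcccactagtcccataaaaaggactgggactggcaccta
The aligned stretches share 91.9% of their bases, with 20 mismatches and 6 gap positions. Both hold the STAT letters, beginning at -97 in Hamp and -94 in Hamp2, as do 0.417% of all 32851 promoters of the table. GGCGCC begins at -109 in Hamp, is found in 11.9% of all promoters and is not in the Hamp2 window. Both motifs were searched on both strands and do not overlap each other. A match of letters is a description and was not tested as a binding site.

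Some genes of glucose use and fat synthesis were called higher at Day21. Of 19 glucose-use genes 3 were higher and 1 was lower, with 3 higher against Day7 alone and 7 higher against Day14 alone. Pklr, the pyruvate kinase of hepatocytes, measured 8.78 and 8.77 on the Day21 arrays, against 7.45 at Day7 and 6.85 at Day14. It rose by 1.62 ± 0.18, though its 2 other sets moved by 0.41 and 0.20. The glycogen branching enzyme Gbe1 (1.34 ± 0.23) and the glycogen-targeting phosphatase subunit Ppp1r3b (1.22 ± 0.18) also rose, while the sister subunit Ppp1r3c fell by 1.30. Of 11 genes of glucose production, Ppargc1a, a coactivator of the fasting response, was called higher. It stood at 8.28 and 8.06 on the Day21 arrays, against 5.56 at Day7 and 7.30 at Day14. Fructose bisphosphatase Fbp1 differed by -0.64 ± 0.31 and was not called.

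Of 25 fat-synthesis genes 6 were higher and 1 was lower, and against Day14 alone 10 were higher. Lpin1, a phosphatidate phosphatase on the way to triglyceride, measured 10.57 and 10.54 on the Day21 arrays, against 6.57 at Day7 and 9.31 at Day14. Acss2, which makes acetyl-CoA from acetate in the cytosol, had 8.78 and 8.80 on the Day21 arrays, against 6.74 at Day7 and 6.00 at Day14. The desaturase Scd1 had 9.32 and 9.41 on the Day21 arrays, against 7.31 at Day7 and 8.26 at Day14. For these genes both Day21 arrays exceeded both suckling arrays by more than 2-fold. Fatty acid synthase (Fasn) measured 8.08 on both Day21 arrays, against 7.51 at Day7 and 6.37 at Day14, so its rise of 1.14 ± 0.14 was 0.57 against Day7 alone and lost its call there. Lpin2 (1.81 ± 0.20) and the citrate carrier Slc25a1 (1.17 ± 0.16) were called too, and the desaturase Fads2 fell by 1.08. Against Day14 alone Fads2 differed by -0.38 and was not called, and its other sets gave -0.31 and -0.27. Srebf1, the transcription factor of this programme, differed by 0.18 ± 0.21 and was not called. At 18 weeks Scd1 stood at 13.20 and Fasn at 9.58, both above Day21.

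Many genes of cholesterol synthesis dipped at Day14. Of 21 genes 9 were higher at Day21 and 1 was lower, and 2 of the 9 passed the stricter rule. With the mean of all probe sets of a gene, 5 were higher. Against Day14 alone 12 were higher, and against Day7 alone 3. The median member differed by 0.07 between Day21 and Day7, and by 1.03 between Day21 and Day14, beside -0.05 and -0.03 over all genes. From Day7 to Day14 12 of the 21 genes fell and 0 rose. Idi1, which isomerises the isoprenoid unit, measured 9.94 and 9.66 on the Day21 arrays, against 9.26 at Day7 and 5.64 at Day14. Farnesyl diphosphate synthase (Fdps) had 9.60 and 9.63 on the Day21 arrays, against 9.30 at Day7 and 6.03 at Day14. On the sets used both lay near their Day7 level at Day21, and their calls were lost against Day7 alone (0.54 for Idi1 and 0.31 for Fdps). A second Idi1 set stood further above Day7, with 10.28 and 9.69 on the Day21 arrays, against 8.90 at Day7 and 4.53 at Day14. The second Fdps set stayed between 4.16 and 4.29 on all 4 arrays. Squalene epoxidase (Sqle) was called higher, yet its Day21 arrays (7.91 and 7.93) lay below Day7 (8.45) and above Day14 (5.27). Dhcr7, the last enzyme of the pathway, and Insig1 passed the stricter rule. Dhcr7 stood at 8.72 and 8.57 on the Day21 arrays, against 7.41 at Day7 and 5.98 at Day14. Insig1, which holds the sterol sensor SCAP in the endoplasmic reticulum, stood at 7.83 and 7.62 on the Day21 arrays, against 6.69 at Day7 and 5.32 at Day14. Its paralogue Insig2 was the member that fell, with 8.62 and 8.55 on the Day21 arrays, against 10.12 at Day7 and 10.22 at Day14, a difference of -1.58 ± 0.21. The Insig pair therefore moved in opposite directions. The dip rests on the single Day14 array, the same array on which most pancreas genes were highest. The part of that array in these values was not tested.

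**Figure D3:**
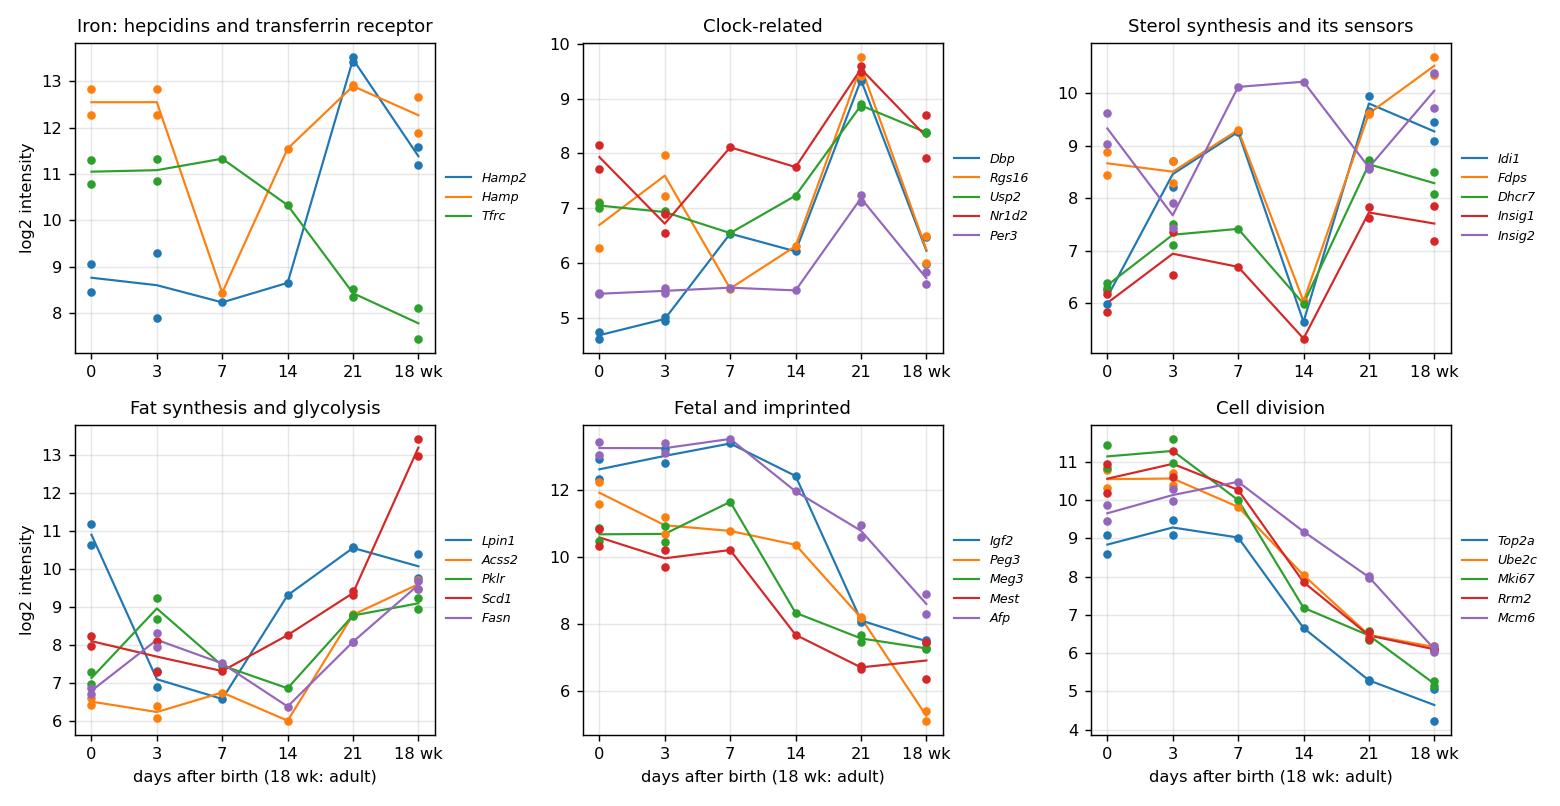
Log2 intensity by days after birth (0 to 21, then 18 weeks) in 6 panels of genes; points are arrays and lines join stage means, to be compared within a gene. Idi1 and Fdps drop to 5.64 and 6.03 at day 14, Dbp and Rgs16 peak at day 21, and Igf2 and the cell division genes decline.

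Of 29 fatty acid oxidation genes 2 were higher (6.9%) and 3 lower (10.3%), beside 1.98% and 1.74% over all genes. Compared with Day7 alone 6 of the 29 were lower, beside 4.41% of all genes. The peroxisome gene Pex11a (1.73 ± 0.18) and Pdk4 (1.40 ± 0.14), the kinase that shuts off pyruvate dehydrogenase, rose. The thiolase Acat1 fell by 1.19, Hadhb, a subunit of the mitochondrial trifunctional protein, fell by 1.19, and the fatty acid hydroxylase Cyp4a31 fell by 1.33 on the set used. A second Cyp4a31 set went the other way by 1.35, with 7.56 and 7.24 on the Day21 arrays, against 5.96 at Day7 and 6.13 at Day14, so the direction of this gene is uncertain. Other Hadhb sets gave -0.77 and 0.01. Cpt1a, the gate of mitochondrial import, measured 11.30 and 11.35 on the Day21 arrays, against 12.09 at Day7 and 11.57 at Day14. Its difference of -0.51 ± 0.23 was not called. The fasting hormone Fgf21 lay at 5.34 and 5.37 on the Day21 arrays, against 5.31 at Day7 and 5.63 at Day14, below the array medians on all of them.

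In lipid transport 5 of 27 genes were lower and 2 were higher, with 8 lower against Day7 alone. All 5 lower genes passed the stricter rule, and 3 of them encode fatty acid binding proteins. Fabp5 measured 9.68 and 9.40 on the Day21 arrays, against 13.19 at Day7 and 12.37 at Day14. Fabp4 had 6.58 and 6.37 on the Day21 arrays, against 9.70 at Day7 and 7.68 at Day14. Fabp2 had 8.26 and 8.28 on the Day21 arrays, against 10.99 at Day7 and 9.67 at Day14. In all 3 genes the Day7 array was highest and both Day21 arrays lowest. Fabp4 also marks fat cells and Fabp2 gut epithelium. Of the other adipose genes 0 of 8 were called, and of the other intestine genes 1 of 9, the keratin Krt20. The fatty acid receptor Cd36 fell by 1.71 and apolipoprotein Apoa4 by 1.36. The hepatocyte protein Fabp1 differed by -0.33 ± 0.22 and was not called. Angptl4, an inhibitor of lipoprotein lipase, rose by 2.04 ± 0.18, and Apoc3, which slows clearance of triglyceride-rich particles, by 1.35 ± 0.18. Apoc3 differed by 0.96 against Day14 alone, under 2-fold. A second Fabp4 set gave -2.67. Sets without shared transcripts gave 0.02 for Fabp4, -0.19 for Angptl4 and -0.62 for Cd36. That Fabp4 set lay between 5.09 and 5.14 and that Angptl4 set between 4.17 and 4.37, below the array medians.

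Bile acid genes were higher at Day21 in 6 of 25 cases and lower in 0. Against Day7 alone 6 were higher, and against Day14 alone 3. Cyp7a1, which sets the pace of the classic route from cholesterol to bile acids, measured 10.29 and 10.45 on the Day21 arrays, against 9.08 at Day7 and 9.55 at Day14. Its rise of 1.05 ± 0.24 sat at the threshold and was 0.82 against Day14 alone. The second Cyp7a1 set differed by 0.20, with 8.12 and 8.27 on the Day21 arrays, against 7.41 at Day7 and 8.59 at Day14, so Day14 was highest there. The call was lost with the mean of both sets (0.63) and with a replicate block (0.96). Cyp27a1, of the alternative route, had 10.98 and 11.00 on the Day21 arrays, against 8.59 at Day7 and 9.66 at Day14. The uptake carrier Slco1a4 (2.09 ± 0.19) and the export pumps Abcc3 (1.93 ± 0.12) and Abcc2 (1.22 ± 0.23) rose, as did Baat (1.05 ± 0.13), which conjugates bile acids to taurine and glycine. Measured from Day14 alone, Slco1a4 differed by 0.96 and Baat, on the set used, by 0.61, both under 2-fold. A second Baat set, of a kind that can match several transcripts, was higher at Day21 by 2.42. It had 9.96 and 9.36 on the Day21 arrays, against 6.16 at Day7 and 8.32 at Day14. The phospholipid flippase Abcb4 differed by 0.12 ± 0.17 and was not called.

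Of 41 cytochrome P450 and related genes of drug oxidation 11 were higher and 3 were lower, Cyp3a44, Cyp3a16 and Cyp1a1. Against Day14 alone 9 were higher and 1, Cyp3a44, was lower. Cyp2b13 measured 9.53 and 8.99 on the Day21 arrays, against 6.06 at Day7 and 6.84 at Day14. Cyp4f14 had 9.00 and 8.96 on the Day21 arrays, against 6.48 at Day7 and 6.23 at Day14. Aldehyde oxidase Aox1 had 7.75 and 7.96 on the Day21 arrays, against 5.57 at Day7 and 5.47 at Day14. These genes were low in both suckling pools. Cyp2c29 followed another course, with 11.93 and 11.96 on the Day21 arrays, against 7.29 at Day7 and 11.64 at Day14. Its rise lay almost wholly between Day7 and Day14, and against Day14 alone it was 0.31. Nr1i2, the xenobiotic receptor PXR, rose by 1.25 ± 0.12. Cyp3a44 fell to 5.92 and 5.56 on the Day21 arrays, against 9.80 at Day7 and 8.08 at Day14, and Cyp3a16, known as a fetal form in mouse, fell by 1.13. Cyp3a11, the main adult form, differed by -0.08 ± 0.25 and Cyp2e1 by 0.01 ± 0.23, and neither was called. Cyp3a and Cyp2c genes are close relatives whose probes can share transcripts, so these values are uncertain to that extent.

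Of 39 conjugation and antioxidant genes 8 were higher and 0 lower, and all 8 passed the stricter rule. Glutathione transferases made up 5 of the 8. Gstm3 measured 10.96 and 10.99 on the Day21 arrays, against 8.16 at Day7 and 8.21 at Day14. Gsta2 had 9.01 and 9.21 on the Day21 arrays, against 7.77 at Day7 and 5.37 at Day14. Gstt3 (2.29 ± 0.12), Gstm2 (2.10 ± 0.12) and Gstm1 (1.52 ± 0.19) were the others. Nicotinamide methyltransferase Nnmt, the glucuronosyltransferase Ugt2a3 and the sulfotransferase Sult1b1 completed the group. The abundant Gstp1 (0.36 ± 0.18) and Mgst1 (-0.20 ± 0.26) were not called.

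Among 41 genes of urea formation and amino acid breakdown 5 were higher and 3 lower, with 8 higher and 5 lower against Day7 alone, and 3 higher and 1 lower against Day14 alone. The rising ones degrade amino acids. Prodh, the first enzyme of proline breakdown, measured 10.01 and 9.95 on the Day21 arrays, against 6.11 at Day7 and 6.87 at Day14. The alanine aminotransferase Gpt2 had 9.82 and 9.69 on the Day21 arrays, against 6.46 at Day7 and 6.72 at Day14, and its paralogue Gpt rose by 1.49 ± 0.13. Histidine ammonia-lyase (Hal) rose by 1.67 ± 0.15 and ornithine aminotransferase (Oat) by 1.06 ± 0.22. The comparison with Day14 alone gave 0.72 for Hal and 0.49 for Oat, both under 2-fold. The falling ones make amino acids or taurine: asparagine synthetase (Asns) fell by 1.10, Psat1 of serine synthesis by 1.53 and Csad of taurine synthesis by 1.41. Against Day14 alone these differences were -0.41 for Asns, -0.55 for Psat1 and -0.38 for Csad.

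Clock genes stood higher at Day21 in 4 of 19 cases and lower in 0, and all 4 passed the stricter rule. Dbp, an output factor of the clock, measured 9.36 and 9.33 on the Day21 arrays, against 6.54 at Day7 and 6.21 at Day14. Usp2 had 8.84 and 8.91 on the Day21 arrays, against 6.55 at Day7 and 7.23 at Day14. Nr1d2, the nuclear receptor REV-ERB beta, had 9.59 and 9.50 on the Day21 arrays, against 8.11 at Day7 and 7.75 at Day14. The period gene Per3 had 7.12 and 7.25 on the Day21 arrays, against 5.55 at Day7 and 5.50 at Day14. Other Per3 sets ranged between -0.45 and 1.24, and the second Nr1d2 set gave 0.20. With the mean of all probe sets of a gene, Per3 (0.59) and Nr1d2 (0.91) lost their calls. Rgs16, outside the list, had 9.77 and 9.41 on the Day21 arrays, against 5.53 at Day7 and 6.31 at Day14. At 18 weeks Dbp (6.22), Per3 (5.72) and Rgs16 (6.25) were back near the suckling values. Usp2 (8.38) stayed closer to Day21, and Nr1d2 (8.31) lay between Day21 and the suckling values. The clock swings over the day, each pool is 1 collection, and the hour of collection and the stage cannot be told apart. Of 16 glucocorticoid-responsive genes 2 were higher, Lpin1 and Tsc22d3, and 2 were lower, Mt2 and Sgk1; against Day7 alone 5 were higher. Mt2 differed by -0.75 against Day14 alone and was not called there. Sgk1 (-1.04) sat at the threshold, differed by -0.88 against Day7 alone without a call, and lost its call in 8 of the alternative settings. Tsc22d3 rose by 2.10 ± 0.17 on the set used and by 1.74 on another, while a set without shared transcripts gave -0.02. That last set lay between 5.09 and 5.24 on the arrays compared, below the array medians.

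Of 28 genes of the fetal liver and the imprinted growth network 10 were lower at Day21 and 1 was higher, with a median of -0.28, and 3 of the 10, Igf2, Peg3 and Afp, passed the stricter rule. Against Day7 alone 12 were lower, and against Day14 alone 3. Igf2 measured 8.16 and 8.05 on the Day21 arrays, against 13.39 at Day7 and 12.42 at Day14, a 27.8-fold difference. A dimmer second Igf2 set gave -0.96, and the mean of both sets -2.88. The imprinted zinc-finger gene Peg3 had 8.20 and 8.17 on the Day21 arrays, against 10.78 at Day7 and 10.37 at Day14. These 2 genes lost most of their level after Day14. The imprinted RNA Meg3 instead had 7.46 and 7.68 on the Day21 arrays, against 11.65 at Day7 and 8.34 at Day14. Mest had 6.66 and 6.75 on the Day21 arrays, against 10.21 at Day7 and 7.68 at Day14. Meg3 and Mest thus lost most of their level before Day14, and neither was called against Day14 alone (-0.76 and -0.97). The other Meg3 sets ranged between -3.07 and 0.05. Grb10, also imprinted, had 7.76 and 8.19 on the Day21 arrays, against 11.17 at Day7 and 8.78 at Day14, and Plagl1, Cdkn1c and Sgce fell by 1.56, 1.55 and 1.21. Alpha-fetoprotein (Afp) had 10.96 and 10.61 on the Day21 arrays, against 13.53 at Day7 and 11.96 at Day14. The member that rose was Zbtb20, known as a repressor of Afp in mouse liver, with 8.64 and 8.73 on the Day21 arrays, against 7.62 at Day7 and 7.65 at Day14. The growth hormone receptor Ghr (0.10 ± 0.21) and Igf1 (-0.12 ± 0.16) were not called. Of 28 genes of growth hormone action and adult liver 2 were lower (7.14%, beside 1.74% over all genes), Igfbp2 and Hao2, and 0 were higher. Lower against Day7 alone were 3, and against Day14 alone 1, beside 4.41% and 0.528% over all genes. Hsd3b5, an adult male enzyme, was at 5.16 and 5.21 on the Day21 arrays, against 5.30 at Day7 and 5.26 at Day14, and at 9.65 at 18 weeks.

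Many genes of cell division were lower at Day21. Of 32 mitosis genes 17 were lower at Day21 and 0 higher, with a median of -1.12 beside -0.04 over all genes. Of 31 replication genes 11 were lower and 0 higher, with a median of -0.75. Against Day7 alone 22 mitosis and 17 replication genes were lower, against Day14 alone 5 and 2. Top2a, the mitotic topoisomerase, measured 5.30 and 5.28 on the Day21 arrays, against 9.02 at Day7 and 6.66 at Day14, while its other sets differed by -0.35 and -0.01. Ube2c, which loads ubiquitin for the anaphase-promoting complex, had 6.47 and 6.48 on the Day21 arrays, against 9.82 at Day7 and 8.04 at Day14. Birc5, or survivin, of the chromosomal passenger complex had 5.60 and 5.44 on the Day21 arrays, against 8.59 at Day7 and 6.62 at Day14. In each of them the step from Day7 to Day14 exceeded the step from Day14 to Day21. The proliferation antigen Mki67 fell by 2.13, but by 0.72 against Day14 alone, where it was not called. Among replication genes the ribonucleotide reductase subunit Rrm2 (-2.60 ± 0.25) and the helicase subunit Mcm6 (-1.84 ± 0.16) passed the stricter rule. Pclaf, a partner of the replication clamp, fell by 2.77, and the clamp Pcna by 1.60. Blood precursors also divide, and their genes fell in the same pools, as given below. In whole liver, fewer cells of a type and less RNA per cell cannot be told apart.

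Short promoter stretches of 5 of the falling mitosis genes are shown for the CHR element, a site through which cell-cycle complexes repress and activate late genes. They are RefSeq sequence of build GRCm38.p6 on the gene's strand, upstream of the annotated start, and capitals mark TTTGAA or its reverse complement TTCAAA. Top2a lies at chr11:99024190-99024242 (minus), Ube2c at chr2:164769870-164769928 (plus), Mki67 at chr7:135716442-135716507 (minus), Cdk1 at chr10:69352913-69352957 (minus) and Cdc20 at chr4:118437344-118437391 (minus).
Top2a: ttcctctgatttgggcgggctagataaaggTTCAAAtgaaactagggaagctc
Ube2c: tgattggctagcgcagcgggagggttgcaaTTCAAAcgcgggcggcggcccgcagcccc
Mki67: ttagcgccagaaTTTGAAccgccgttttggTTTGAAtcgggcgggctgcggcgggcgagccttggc
Cdk1: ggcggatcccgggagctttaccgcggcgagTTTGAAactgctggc
Cdc20: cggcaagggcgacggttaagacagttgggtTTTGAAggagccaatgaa
The letters were in 10 of 14 promoters of called mitosis genes (71.4%), in 11 of 13 promoters of members not called (84.6%) and in 17.9% of all promoters. CCAAT was in 71.4% of the promoters of called members, 92.3% of those not called and 37.4% of all. The E2F letters TTTCGCGC or TTTGGCGC were in 36.4% of promoters of called replication genes, 27.3% of those not called and 0.813% of all. The shares of CHR and CCAAT letters were no higher among called members than among members not called, and the genes are too few to compare. Some members not called were lower too, since 22 mitosis genes were lower against Day7 alone, beside the 17 called. Prc1, not called, differed by -1.31 against Day7 alone. All were searched on both strands over 250 bases before to 50 bases after the start, and 14 of the 17 called mitosis genes and 10 of the 11 called replication genes had a promoter in the table.

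Some granulocyte, erythroid, and stem cell and megakaryocyte genes were lower at Day21. Of 17 granulocyte genes 9 were lower and 0 higher, with 9 lower against Day7 alone and 3 against Day14 alone. The list median was -1.14, and Elane (-0.52 ± 0.16) and Ctsg (-0.28 ± 0.19) were not called. S100a8 measured 7.35 and 7.69 on the Day21 arrays, against 12.84 at Day7 and 9.20 at Day14. The neutrophil granule protein Ngp had 7.18 and 7.50 on the Day21 arrays, against 11.83 at Day7 and 8.52 at Day14. The granule genes Ltf and Camp were already low at Day14. Ltf had 5.71 and 5.99 on the Day21 arrays, against 10.42 at Day7 and 6.37 at Day14. Of 25 erythroid genes 7 were lower and 0 higher, 13 lower against Day7 alone and 1, Tfrc, against Day14 alone, where 3 were higher. The list median was -0.46, and Fech (0.02 ± 0.19) and Slc25a37 (0.29 ± 0.21) were not called. Against Day14 alone Slc25a37 was higher by 1.65. Hemgn, a nuclear protein of red cell precursors, had 5.28 and 5.12 on the Day21 arrays, against 9.06 at Day7 and 5.30 at Day14. Of 18 stem cell and megakaryocyte genes 4 were lower and 0 higher, among them the platelet chemokines Pf4 and Ppbp, and against Day14 alone 2 were lower. The median of this list was -0.08, beside -0.04 over all genes. Its members Myb (0.01 ± 0.23) and Gata2 (-0.05 ± 0.12) were not called. Ppbp had 4.94 and 4.66 on the Day21 arrays, against 9.71 at Day7 and 4.59 at Day14. Hemgn and Ppbp were thus as low at Day14 as at Day21.

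Lists of resident liver cells also held members that were lower at Day21. Of 20 macrophage genes 6 were lower and 0 higher, with 14 lower against Day7 alone and 1 against Day14 alone. C1qb, a complement subunit made by Kupffer cells, measured 8.88 and 8.73 on the Day21 arrays, against 10.67 at Day7 and 9.89 at Day14, and was the one that passed the stricter rule. The scavenger receptor Marco had 7.45 and 7.51 on the Day21 arrays, against 10.80 at Day7 and 7.78 at Day14. Of 25 stellate and mesenchymal genes 4 were lower and 0 higher, 11 lower against Day7 alone and 2 against Day14 alone. They were the matrix genes Lum, Postn, Col14a1 and Col5a2, by 1.50, 1.35, 1.19 and 1.17. Of 13 bile duct genes Prom1 and Aqp1 were lower and 0 were higher, with Prom1 alone lower against Day14. Of 22 endothelial genes 1 was higher, the sinusoidal nuclease Dnase1l3 at 1.06 ± 0.17, and 0 were lower. Of 25 acute-phase and complement genes 3 were lower, Saa1, Saa2 and Serpina3n, and 0 higher. Of 20 immediate early genes Zfp36 was higher and Btg2 lower, and of 20 B and plasma cell genes Cd79b was lower. Each of these single calls is 5% of its list, and the endothelial one 4.55%, beside 1.98% higher and 1.74% lower over all genes. No member was called among 18 T and NK cell, 16 antigen presentation, 24 interferon-induced, 18 skeletal muscle and 14 housekeeping genes. The T and NK list averaged 5.50 and 5.48 on the Day21 arrays, against 5.61 at Day7 and 5.57 at Day14. Skeletal muscle genes averaged 5.30 and 5.26 on the Day21 arrays, against 5.50 at Day7 and 5.52 at Day14, below the array medians.

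**Figure D4:**
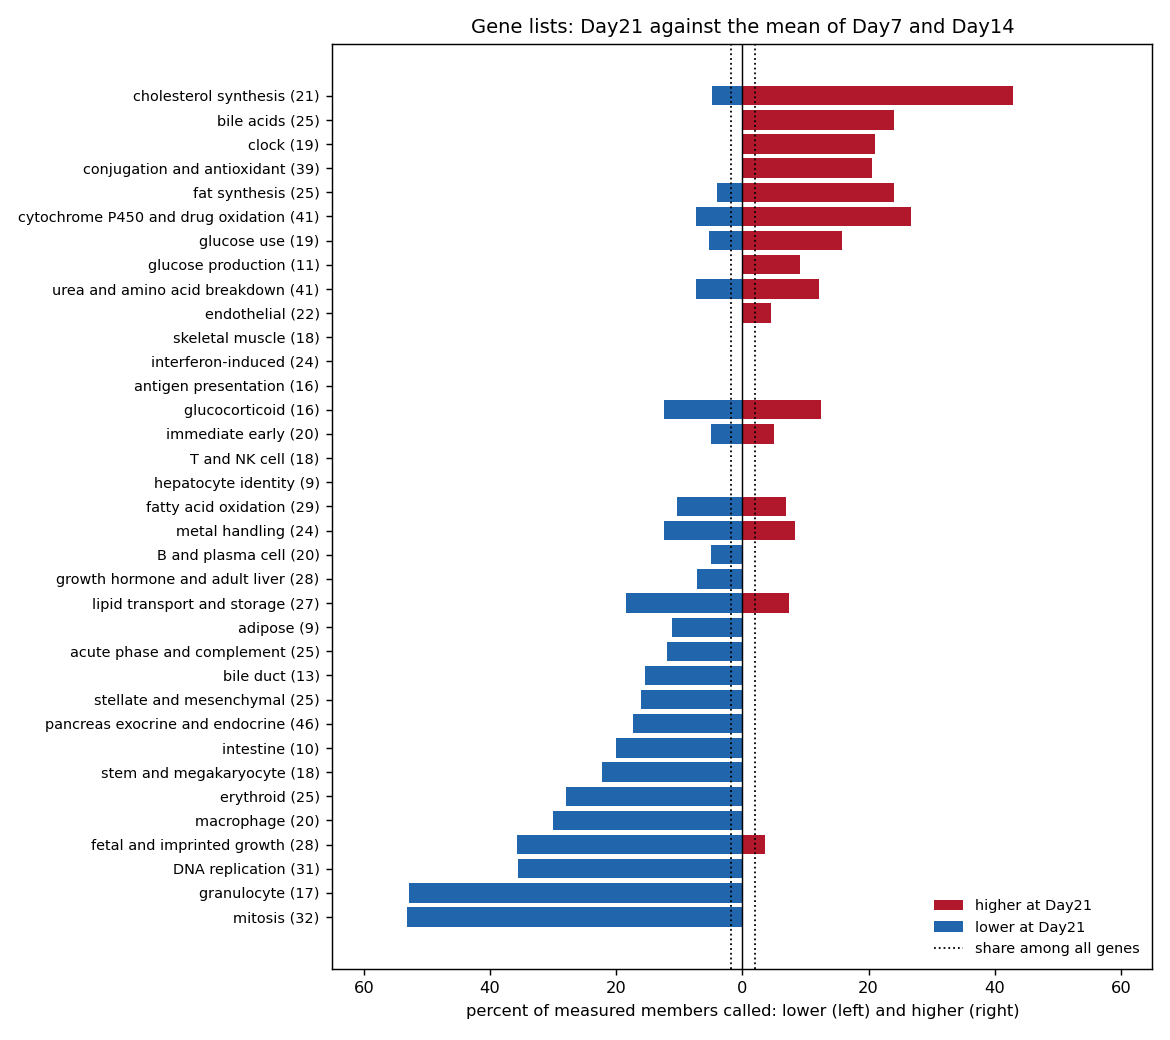
Percent of the measured members of each gene list (number in brackets) called lower (bars to the left) or higher (bars to the right) at Day21 against the mean of Day7 and Day14; dotted lines are the shares over all genes, 1.74% lower and 1.98% higher. Cholesterol synthesis reaches furthest to the right, with 9 of 21 genes, and mitosis furthest to the left, with 17 of 32.

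Marks of sex were read because the pups' sex is not given. Xist, the RNA of the inactive X chromosome in females, measured 10.17 and 10.37 on the Day21 arrays, against 10.81 at Day7 and 10.62 at Day14, and 6.93 at 18 weeks. A second Xist set was higher at Day21 by 1.28, with 11.16 on both Day21 arrays, against 9.92 at Day7 and 9.83 at Day14, and the remaining set was higher by 1.04. The Y-linked gene Eif2s3y was at 4.27 and 4.02 on the Day21 arrays, against 5.19 at Day7 and 4.25 at Day14, and 7.21 at 18 weeks. On the sets used, none of the 4 sex marks was called between Day21 and the suckling pools. On those sets Xist was high and Eif2s3y low on all 4 arrays compared here, unlike on the adult arrays. Cyp2b13, known as female-biased in adult mouse liver, stood at 5.69 in the adult pool, so the step from Day21 to adult cannot be told apart from a change of sex between pools.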

How the data were processed

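The authors deposited 1 table of intensities on a linear scale for 25 Affymetrix arrays and 45101 probe sets, from 12.6 to 25175. Per the submitters' processing notes the arrays went through RMA, of which the sources used here give neither version nor settings. The log2 of each deposited intensity was taken, without a pseudocount. Probe sets with 1 gene symbol in the platform annotation (34958) were kept, and the set with the highest mean stood for a gene. Limma 3.58.1 in R 4.3.3 fitted 1 mean per stage to all 25 arrays (lmFit, eBayes without trend, 11 residual degrees of freedom), with Day7 and Day14 assumed to vary like the stages that have 2 arrays. p-values were adjusted over 18194 genes. They measure technical spread, and the number of arrays limits the precision. The fit was also run on simulated data with noise independent between arrays, which cannot speak to variation between pools or to replicate numbers.

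The 37 gene lists (831 of 930 entries measured) and the comparison were chosen with earlier results of these data known. Genes were named by rule: the 12 largest rises and falls under the stricter rule, up to 4 called and 2 other members per list, and 25 preset genes, some of which are not analysed here. Further list members named, Rgs16's place beside the clock genes, and the shown promoters were chosen after the values were seen. Alternatives covered 3 scalings, other probe sets for a gene, omission of dim genes, another variance model, fewer samples in the fit, a replicate block, each replicate left out, and a stricter threshold; the omission of the pancreas list was added after seeing the data. Promoters and gene positions are RefSeq, GRCm38.p6.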

Additional observations from a re-analysis of the deposited data

How the results depend on the processing

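With the 3 pools as replicates, 0 genes were called higher or lower by either rule. Without Day7, 552 genes were higher and 96 lower; without Day14, 467 were higher and 803 lower. Leaving out each array in turn gave 332 to 552 higher genes and 96 to 803 lower ones, and under the stricter rule 200 to 227 and 78 to 81; the stricter rule needs both younger arrays and was run only with them. The 1042 genes called from Day7 to Day14 became 656 with the housekeeping mean made equal, 580 with the mean of all probe sets of a gene, 376 with only the arrays from birth on, 625 at an adjusted p under 0.01, and 998 without either Day21 array. The mean of probe sets left 214 higher genes. With the housekeeping mean made equal, 525 genes were higher and 221 lower, 70.4% higher among the called against 53.2%, and the median of all genes was 0.11 against -0.04. The replicate block gave 401 higher and 266 lower genes (225 and 62 by the stricter rule) and 1142 from Day7 to Day14, and it lost the calls of Cyp7a1 (0.96), Baat (0.99), Sgk1 (-0.96), Hao2 (-0.98) and Aqp1 (-0.99) among the genes named. The labels do not say what a replicate number marks. Same-numbered arrays of 2 stages deviated together at r above 0.1 in 38 of 55 pairs of stages (median 0.40, lowest -0.57). Pairing was accepted only if every pair exceeded 0.1, so the block stayed an alternative. Without sets that can match several transcripts, the direction turned for Tsc22d1 (0.15), Tsc22d3 (-0.017), Angptl4 (-0.19), Fabp4 (0.019), Sgce (0.088) and Xist (1.28), and Hamp2 fell to 0.06; with the mean of probe sets it turned for Cyp4a31 (0.010), whose 2 sets oppose each other. Leaving out a suckling array gave -0.53 to 2.66 for Sqle, -4.91 to 0.20 for Ppbp and -2.62 to 0.10 for Cyp1a1. Leaving out dim genes, which tests fewer genes, left 3 conjugation, 7 drug oxidation, 2 clock and 3 pancreas genes called. The cause of the other shifts was not tested. Of 131 named genes called, 64 kept their call and direction under every alternative but the 3 pools; without Day7 40 lost it and 2 turned, and without Day14 7 lost it and 1 turned.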
